A study of Drosophila melanogaster with 58 samples.

Results

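Kenyon cells, the intrinsic neurons of the fly mushroom body, are born in sequence from the same neuroblasts. Gamma neurons are born first; they prune their larval axons early in metamorphosis and then regrow an adult axon. Alpha-beta neurons are born last, during pupal life, and extend their axon for the first time. At 30 h after pupa formation both types are therefore growing axons in the same pupal brain, gamma neurons by regrowth and alpha-beta neurons by initial outgrowth, and the comparison asks which genes differ between the types at that moment.

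The members were all RNA-seq libraries labelled as gamma or alpha-beta neurons at 30 h, 10 of the 58 libraries of the series: 5 of gamma neurons and 5 of alpha-beta neurons. Brains of Drosophila melanogaster of random sex reared at 25 °C were dissociated, 1000 GFP-positive cells were sorted per library, and cDNA was made with a Smart-seq2 protocol. No mutant allele, treatment or control genotype is named for either group, and cell type is the only labelled difference. The labels do not name the driver lines that made the cells GFP-positive, so the driver line and the cell type cannot be told apart. They also do not say whether the replicates came from separate animals or cultures. The p-values therefore measure the spread between libraries, estimated over the 58 libraries of the series rather than over these 10 alone. The other libraries used here are gamma and alpha-beta neurons at 18, 21, 24 and 27 h and in adults 3 to 5 days after eclosion.

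Total counts ranged from 8184961 to 23937961 in the 5 gamma libraries and from 7997417 to 16630101 in the 5 alpha-beta libraries, and 6933 to 7948 genes had a count in a gamma library and 7417 to 7822 in an alpha-beta library. Levels are given as CPM, the read count scaled to a common library size after trimmed mean of M-values normalization. A count of 3 corresponded to 0.119 to 0.338 CPM in the gamma libraries and 0.174 to 0.374 CPM in the alpha-beta libraries. Libraries of the same type were far more variable than counting error allows: the chi-square statistic per degree of freedom between pairs was 181 to 587 within gamma and 127 to 308 within alpha-beta. The Spearman correlation over all genes had a median of 0.863 between a gamma and an alpha-beta library, against 0.875 within gamma and 0.889 within alpha-beta, a description over genes that share a library. Since each library holds many cells, fewer cells expressing a gene and less RNA per cell cannot be told apart.

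Of 12453 genes, 10072 passed the filter on low counts, and 21 of these (0.208%) differed between gamma and alpha-beta neurons at 30 h at an adjusted p under 0.05 in edgeR's quasi-likelihood test. At an unadjusted p under 0.05 there were 1184 genes (11.8%). Of these, 466 had more than 3 counts in only 1 of the 10 libraries, 758 in at most 2 and 115 in all 10. Shares of all genes tested at this level, given below, thus rest largely on genes counted in few libraries. They are no like-for-like baseline for lists of well-expressed genes. With 0.208% of genes called, a short list without a call is the usual outcome. Among the 21 called there were 8 genes higher in gamma neurons (0.0794%) and 13 lower (0.129%). The genes higher in gamma neurons were nw, Hsp70Ba, CG34377, phr, Pxn, CG15765, CG34247 and CG13053. The genes lower in gamma neurons included neuroblast and Notch target genes (wor, tll, E(spl)m8-HLH, E(spl)m6-BFM), 3 long noncoding RNAs (lncRNA:cherub, lncRNA:CR33938, lncRNA:CR32368), and Stacl, CG15130, AstA-R1, RunxA, Obp73a and Ubi-p5E. For 16 of the 21, no gamma library overlapped an alpha-beta library; over all genes tested, 200 (1.99%) had separate groups, 0.953% with every gamma library higher and 1.03% with every gamma library lower. The count depended on the tool: DESeq2 called 609 genes and limma-voom with sample weights called 255, and a fit to the 10 libraries alone called 41. With each of the 10 libraries left out in turn, 8 to 15 genes were called in all. The genes called in all 10 of these fits were lncRNA:cherub, Stacl, CG15130, wor, E(spl)m8-HLH, lncRNA:CR33938, nw and lncRNA:CR32368. The other 13 lost the call in at least 1 fit. Obp73a and RunxA lost it in all 10, tll, CG34247, Ubi-p5E and CG13053 in 9, and E(spl)m6-BFM and CG15765 in 8. AstA-R1 lost it in 6, phr and Pxn in 4, CG34377 in 3 and Hsp70Ba in 1. These 13 had highest adjusted p-values from edgeR between 0.0684 for Hsp70Ba and 0.245 for Ubi-p5E, and none of the 21 changed direction in these fits. All 13 lost it without alpha-beta replicate 5 and 11 without alpha-beta replicate 3. Without alpha-beta replicate 1, gamma replicate 2 or gamma replicate 3, 9 lost it. Without alpha-beta replicate 2 or 4, or gamma replicate 4 or 5, 8 lost it, and without gamma replicate 1, 7 did. In the authors' deposited table, whose fold change is given as alpha-beta over gamma, 534 of 12453 genes (4.29%) carried their pass mark, 243 with the gamma side higher (1.95%) and 291 with it lower (2.34%); 20 of the 21 genes were among them, all but Obp73a.

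**Figure D1:**
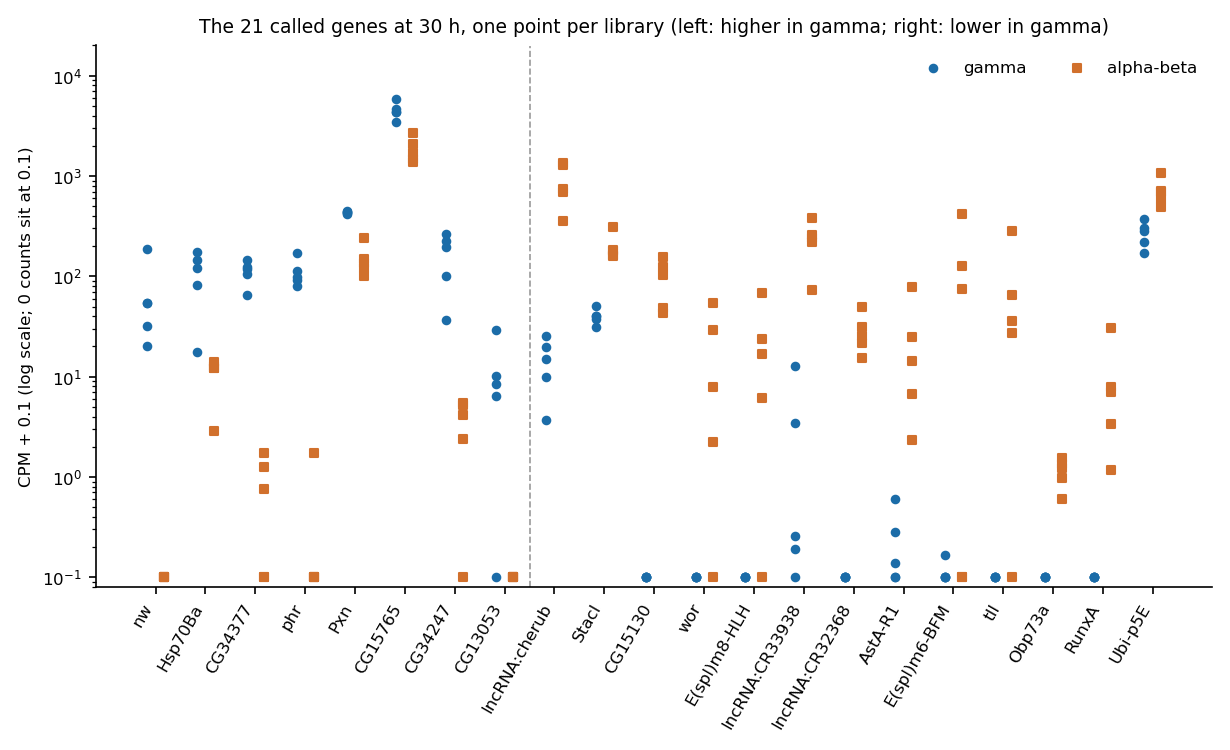
Levels of the 21 called genes at 30 h, 1 point per library, as CPM plus 0.1 on a log axis, with gamma libraries (circles) left of alpha-beta libraries (squares) for each gene and genes ordered by p within each direction. Pxn and CG15765 are well expressed in both types and differ in level, whereas CG15130, lncRNA:CR32368 and RunxA have no count in any gamma library and nw has none in any alpha-beta library.

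The gamma-high genes were of 2 kinds, those at or near 0 in alpha-beta neurons at 30 h and those expressed in both types. The gene nw (narrow) encodes a secreted C-type lectin-like protein. It stood at 53.7, 20.3, 54.4, 32.02 and 188 CPM in gamma libraries and had no count in any alpha-beta library. Against the highest 3-count floor of the alpha-beta libraries the gamma mean was at least 186-fold higher (edgeR adjusted p = 0.0114), or 107-fold without gamma replicate 5, and the groups did not overlap. The photolyase phr, which repairs light-induced DNA damage, stood at 80.5, 112, 97.5, 172 and 92.2 CPM in gamma libraries and at 0, 1.62, 0, 0 and 0 CPM in alpha-beta libraries. Every gamma library lay above every alpha-beta library, and the fitted log2 fold change, gamma over alpha-beta, was 8.36 (SE 1.79, edgeR adjusted p = 0.0193). The gene CG34377 stood at 65.0, 144, 105, 119 and 125 CPM in gamma libraries and at 1.64, 0.662, 0, 1.16 and 0 CPM in alpha-beta libraries (log2 fold change 7.30, SE 1.55, edgeR adjusted p = 0.0175). Its groups were also separate. CG34247 ranged from 36.6 to 264 CPM with a median of 198 CPM in gamma libraries, and from 0 to 5.37 CPM with a median of 4.05 CPM in alpha-beta libraries (log2 fold change 5.60, SE 1.32, edgeR adjusted p = 0.0443). CG13053 was at low levels, with 0, 10.01, 6.25, 8.26 and 28.9 CPM in gamma libraries and none in all 5 alpha-beta libraries (at least 28.5-fold higher, or 16.4-fold without gamma replicate 5, edgeR adjusted p = 0.0443). The gamma library without a count made its groups touch.

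Pxn and CG15765 were abundant in both types. Pxn encodes peroxidasin, an extracellular matrix peroxidase. It stood at 435, 417, 432, 437 and 445 CPM in gamma libraries and at 121, 136, 240, 101 and 148 CPM in alpha-beta libraries. The groups were separate, with means of 433 ± 10.2 CPM in gamma neurons and 149 ± 53.5 CPM in alpha-beta neurons (SD, n = 5 each), and the fitted log2 difference was 1.54 with an SE of 0.34 (edgeR adjusted p = 0.0215). CG15765 stood at 4613, 4356, 4376, 3455 and 5917 CPM in gamma libraries and at 2077, 1475, 1681, 2654 and 1387 CPM in alpha-beta libraries. The lowest gamma library lay above the highest alpha-beta library (log2 fold change 1.29, SE 0.29, edgeR adjusted p = 0.0349).

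Glial genes were measured beside these genes. The summed level of 8 glial markers was 471 to 878 CPM in gamma libraries and 454 to 698 CPM in alpha-beta libraries, and nrv2 alone took 362 to 537 CPM of it in gamma libraries and 438 to 655 CPM in alpha-beta libraries. The other 7 markers summed to 109, 308, 218, 395 and 333 CPM in gamma libraries and to 16.4, 67.9, 69.2, 14.6 and 116 CPM in alpha-beta libraries, and the lowest gamma library lay just below the highest alpha-beta library. The glial factor repo stood at 0 to 31.2 CPM in gamma libraries and 0 to 2.41 CPM in alpha-beta libraries, and the glial surface protein gene wrapper at 25.3 to 184 CPM in gamma libraries and 0 to 13.5 CPM in alpha-beta libraries (edgeR adjusted p = 0.335 for wrapper). The median log2 fold change of the 8 was 2.10. Of a longer list of 21 glial genes none was called, 14 had a log2 fold change above 0 (48.3% of all genes tested), the median was 1.31, and at an unadjusted p under 0.05 there were 3 higher in gamma neurons (5.09% of all genes tested) and 1 lower (6.66%). The choice of nrv2, repo and wrapper, and of the sum without nrv2, was made after seeing their values. The part of glia in the differences was not tested.

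Genes lower in gamma neurons were led by lncRNA:cherub, a noncoding RNA known from Drosophila neuroblasts and brain tumours. It stood at 14.8, 25.3, 19.6, 9.82 and 3.595 CPM in gamma libraries, against 700, 743, 1288, 1355 and 354 CPM in alpha-beta libraries. The highest gamma library was far below the lowest alpha-beta library (log2 fold change -5.93, SE 0.84, edgeR adjusted p = 3.26e-05). The other called noncoding RNAs also had separate groups. lncRNA:CR33938 stood at 0, 0.0910, 0.158, 3.39 and 12.8 CPM in gamma libraries, against 220, 258, 241, 378 and 73.1 CPM in alpha-beta libraries (log2 fold change -6.13, SE 1.23, edgeR adjusted p = 0.0114). lncRNA:CR32368 had no count in any gamma library and 21.7, 31.3, 25.4, 15.4 and 49.8 CPM in alpha-beta libraries (at least 85.0-fold lower, edgeR adjusted p = 0.0136). Of 463 long noncoding RNAs tested, these 3 were the only ones called, all lower, against 0.129% of all genes tested. Among the 463, 11 lay lower in every gamma library, against 1.03% of all genes tested, and 1 lay higher, against 0.953%. The median log2 fold change of the 463 was 0, as over all genes tested.

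Stacl, an adaptor protein that acts with voltage-gated calcium channels, was expressed in both types. It stood at 50.8, 39.9, 37.6, 30.8 and 40.1 CPM in gamma libraries, against 183, 179, 164, 159 and 310 CPM in alpha-beta libraries. The groups were separate, with means of 39.8 ± 7.19 CPM in gamma neurons and 199 ± 62.8 CPM in alpha-beta neurons (SD, n = 5 each; log2 fold change -2.32, SE 0.35, edgeR adjusted p = 6.52e-05). The polyubiquitin gene Ubi-p5E stood at 221, 170, 302, 286 and 371 CPM in gamma libraries and at 700, 710, 595, 491 and 1063 CPM in alpha-beta libraries (log2 fold change -1.40, SE 0.33, edgeR adjusted p = 0.0443). CG15130 had no count in any gamma library and 154, 102, 42.8, 47.8 and 123 CPM in alpha-beta libraries (at least 278-fold lower, edgeR adjusted p = 0.000594). AstA-R1, a receptor for the neuropeptide allatostatin A, stood at 0 to 0.506 CPM with a median of 0.0396 CPM in gamma libraries, and at 2.26, 6.55, 25.0, 14.3 and 78.3 CPM in alpha-beta libraries (log2 fold change -7.32, SE 1.65, edgeR adjusted p = 0.0329). The groups of all 4 genes were separate.

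RunxA, a Runt domain transcription factor, had no count in any gamma library and 6.86, 3.31, 1.08, 7.70 and 30.4 CPM in alpha-beta libraries (at least 29.2-fold lower, or 14-fold without alpha-beta replicate 5, edgeR adjusted p = 0.0443). Obp73a, of the odorant-binding protein family, had no count in gamma libraries and only 0.499 to 1.45 CPM in alpha-beta libraries (at least 3.09-fold lower, edgeR adjusted p = 0.0443). In the BDGP6 annotation the exons of Obp73a share bases with Ogdh on the same strand, and those of Pxn with lncRNA:CR45660 on the same strand and CG16986 on the opposite one. Those of phr share bases with Prosalpha1 and those of CG34377 with asRNA:CR46261, both on the opposite strand. Of the 21 genes these 4 overlapped another gene, and reads from the shared bases cannot be assigned with certainty.

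Besides lncRNA:cherub, 4 of the 13 genes called lower are known from neuroblasts or as Notch targets. They are described together here, a grouping made after their values were seen. The gene wor (worniu), a Snail-family factor of neuroblasts, had no count in any gamma library and 0, 2.13, 54.6, 29.1 and 7.73 CPM in alpha-beta libraries (at least 55.4-fold lower, or 28.8-fold without alpha-beta replicate 3, edgeR adjusted p = 0.00325). The orphan nuclear receptor tll (tailless), which maintains mushroom body neuroblasts, had no count in gamma libraries and 27.4, 0, 286, 64.5 and 35.4 CPM in alpha-beta libraries (at least 245-fold lower, or 94.2-fold without alpha-beta replicate 3, edgeR adjusted p = 0.0443). In both genes 1 alpha-beta library was also at 0, so the groups touched. E(spl)m8-HLH, a repressor induced by Notch signalling, had no count in gamma libraries and 16.9, 5.96, 68.8, 23.4 and 0 CPM in alpha-beta libraries (at least 68.1-fold lower, or 34.2-fold without alpha-beta replicate 3, edgeR adjusted p = 0.00556). E(spl)m6-BFM, a Bearded family gene of the same Notch-responsive complex, reached 0.0677 CPM in 1 gamma library and 0 in the others, against 0, 0, 414, 74.5 and 127 CPM in alpha-beta libraries (log2 fold change -12.42, SE 2.86, edgeR adjusted p = 0.0443). The third alpha-beta library was the highest for all 4 genes. Of 31 Notch pathway genes tested, 2 were called, both lower in gamma neurons (0.129% of all genes tested), and at an unadjusted p under 0.05 there were 3 lower (6.66%) and 1 higher (5.09%). Their median log2 fold change was 0 and 14 lay above 0, against 48.3% of all genes tested. The list summed to 1800 to 2640 CPM in gamma libraries and 1800 to 2750 CPM in alpha-beta libraries.

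Of 24 neuroblast and newborn neuron genes tested, 2 were called, both lower in gamma neurons (lncRNA:cherub and wor), against 0.129% of all genes tested. At an unadjusted p under 0.05, 6 were lower, against 6.66% of all genes tested, and none was higher, against 5.09%. The insensible gene insb, a nuclear corepressor of Notch signalling, narrowly missed the threshold: it had no count in gamma libraries and 1.09, 5.88, 26.1, 4.23 and 0 CPM in alpha-beta libraries (edgeR adjusted p = 0.0641). Of 40 cell cycle genes none was called, 12 were lower at an unadjusted p under 0.05 (6.66% of all genes tested) and 1 was higher (5.09%), and 8 had a fitted log2 fold change above 0, against 48.3% of all genes tested. The replication clamp gene PCNA stood at 0, 0, 0, 0.135 and 0 CPM in gamma libraries and at 20.6, 16.1, 13.1, 29.4 and 0 CPM in alpha-beta libraries (edgeR adjusted p = 0.116). Incenp, a chromosomal passenger protein gene, was at 0 in gamma libraries and at 16.8, 0.147, 0, 19.1 and 0 CPM in alpha-beta libraries (edgeR adjusted p = 0.191). The summed level of 7 neuroblast markers was 34.6, 5.01, 13.6, 14.7 and 0 CPM in gamma libraries and 9.04, 17.6, 95.1, 112 and 21.5 CPM in alpha-beta libraries. These sums overlapped, and the part of neuroblasts or newborn cells in the sorted samples in these differences was not tested.

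**Figure D2:**
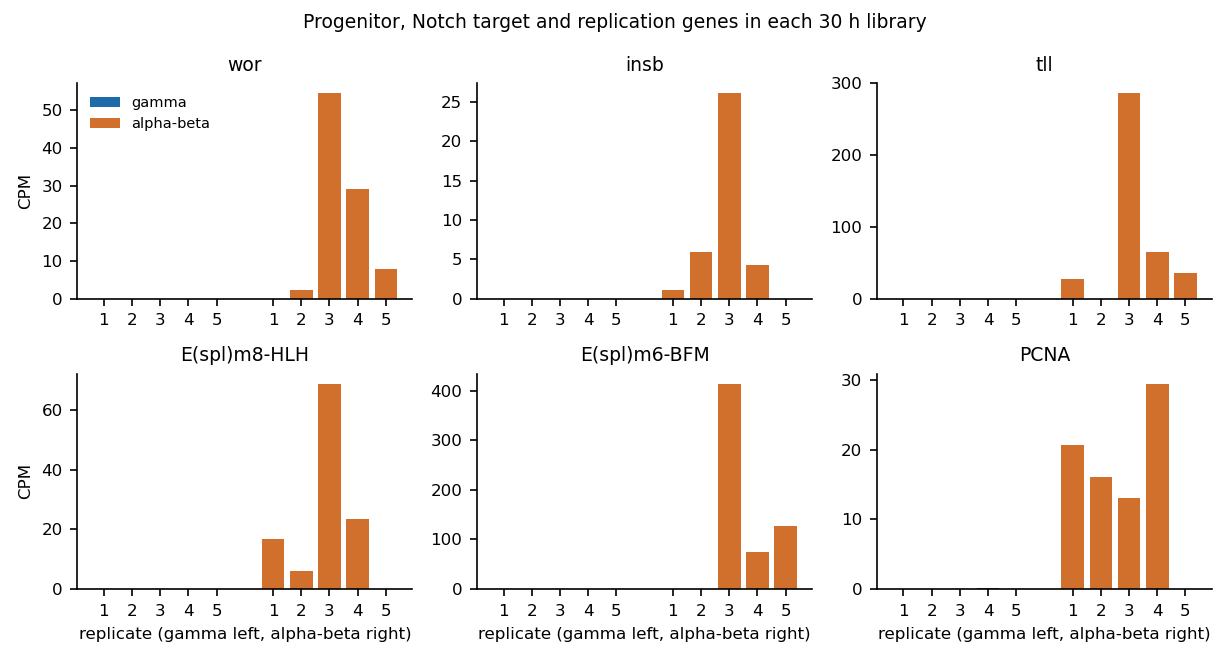
CPM of 6 progenitor, Notch target and replication genes in each 30 h library, gamma replicates on the left and alpha-beta replicates on the right of each panel, with linear axes that start at 0. The gamma libraries are at or near 0 throughout, and the third alpha-beta library is the highest for wor, insb, tll, E(spl)m8-HLH and E(spl)m6-BFM but not for PCNA.

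Hsp70 genes, which encode the stress-inducible cytosolic chaperone, differed by copy. Hsp70Ba stood at 17.5, 175, 120, 145 and 81.2 CPM in gamma libraries and at 12, 13.8, 12.8, 11.99 and 2.74 CPM in alpha-beta libraries (log2 fold change 3.33, SE 0.69, edgeR adjusted p = 0.0136). Hsp70Bc lay the other way without passing the test, at 10.6, 81.8, 35.7, 52.1 and 83.6 CPM in gamma libraries and at 288, 350, 194, 256 and 113 CPM in alpha-beta libraries (log2 fold change -2.19, SE 0.60, edgeR adjusted p = 0.149). Neither gene's groups overlapped. Hsp70Ba made up 18.4 to 26.4% of the counts of the 6 Hsp70 genes in gamma libraries and 1.16 to 2.17% in alpha-beta libraries, whereas Hsp70Bc made up 7.0 to 21.2% in gamma libraries and 32.3 to 47.6% in alpha-beta libraries. With the 6 genes summed before the fit, an alternative chosen after the data were seen, the log2 fold change was -0.43 (SE 0.47, edgeR adjusted p = 1). The copies are nearly identical in sequence and the authors' counting of reads that fit several copies is not given in the sources used here, so the assignment to single copies is uncertain. Of 23 heat shock genes tested Hsp70Ba was the only one called, against 0.208% of all genes tested.

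**Figure D3:**
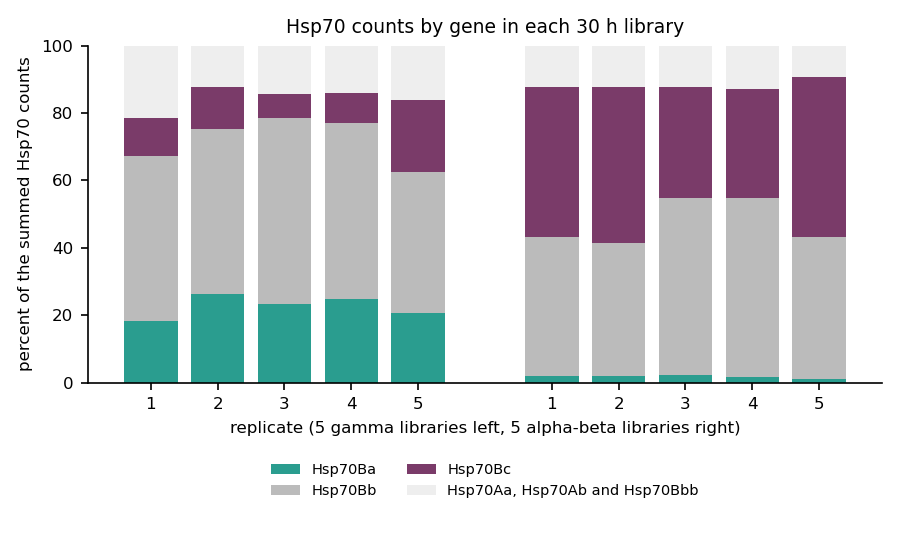
Share of the summed counts of the 6 Hsp70 genes taken by each gene in each 30 h library, in percent, with 5 gamma libraries on the left and 5 alpha-beta libraries on the right. Hsp70Ba holds 18.4 to 26.4% in gamma libraries and 1.16 to 2.17% in alpha-beta libraries.

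The genes known to distinguish Kenyon cell types or to act in their remodelling were examined at 30 h. Of 19 such genes none was called, against 0.208% of all genes tested, so the lack of a call says little about this list. All 19 had fitted log2 fold changes under 1 in size. Only 1 reached an unadjusted p under 0.05, against 11.8% of all genes tested, a share that rests largely on genes counted in few libraries. That gene was chinmo, a temporal identity factor, at 189, 251, 180, 116 and 237 CPM in gamma libraries and 333, 234, 463, 379 and 399 CPM in alpha-beta libraries (log2 fold change -0.89, SE 0.29, edgeR adjusted p = 0.319). The ecdysone receptor EcR, which gamma neurons need for pruning, was the only member whose groups did not overlap, at 136, 138, 96.0, 89.2 and 135 CPM in gamma libraries and 163, 175, 240, 150 and 212 CPM in alpha-beta libraries (log2 fold change -0.66, SE 0.42, edgeR adjusted p = 0.716). The nuclear receptor Hr51, needed for regrowth of gamma axons, stood at 611 to 1166 CPM in gamma libraries and 383 to 949 CPM in alpha-beta libraries (log2 fold change 0.19, SE 0.29, edgeR adjusted p = 1). The adhesion molecule Fas2, a marker of alpha-beta lobes in the adult, stood at 229 to 331 CPM in gamma libraries and 199 to 525 CPM in alpha-beta libraries (log2 fold change -0.34, SE 0.30, edgeR adjusted p = 1). The summed level of 13 Kenyon cell markers was 5180 to 8270 CPM in gamma libraries and 3320 to 9560 CPM in alpha-beta libraries. The 6 gamma markers were ab, trio, Imp, chinmo, mamo and EcR. Their summed level was 3730 to 10300 CPM in gamma libraries and 4930 to 8150 CPM in alpha-beta libraries. Among them chinmo and EcR had fitted log2 fold changes below 0 and the others above 0. Most of the gamma marker sum was mamo. The 3 alpha-beta markers (Fas2, Syp and Eip93F) summed to 688 to 962 CPM in gamma libraries and 724 to 1060 CPM in alpha-beta libraries. Each of these sums overlapped between the types, and of the 19 genes EcR alone had separate groups, against 1.99% of all genes tested.

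In adults 8 of the 19 panel genes were called, against 3.6% of all genes tested, 5 higher in gamma neurons and 3 lower. Over 18 to 27 h 3 of the 19 were called (Imp, chinmo and Fas2), against 4.74% of all genes tested. The zinc finger factor ab (abrupt) averaged 1031 ± 408 CPM in gamma neurons and 776 ± 179 CPM in alpha-beta neurons at 30 h, and 1979 ± 2010 CPM in gamma neurons and 135 ± 52.3 CPM in alpha-beta neurons in adults (SD, n = 5 each). The difference grew by 3.46 on the log2 scale between 30 h and adults (SE 0.55, edgeR adjusted p = 0.000232). The RNA-binding protein gene Imp averaged 340 ± 129 CPM in gamma neurons and 259 ± 101 CPM in alpha-beta neurons at 30 h, and 598 ± 380 CPM in gamma neurons and 82.2 ± 49.8 CPM in alpha-beta neurons in adults (SD, n = 5 each). Its difference grew by 2.47 (SE 0.51, edgeR adjusted p = 0.00489). The zinc finger factor mamo averaged 4870 ± 2115 CPM in gamma neurons and 4510 ± 1510 CPM in alpha-beta neurons at 30 h, and 3782 ± 1784 CPM in gamma neurons and 726 ± 210 CPM in alpha-beta neurons in adults (SD, n = 5 each). Its difference grew by 2.27 (SE 0.45, edgeR adjusted p = 0.00352). Of the panel only ab, Imp and mamo were called in the test of adults against 30 h, in which 67 of all genes tested were called (0.665%). That test was added after the data were seen. The other panel genes called in adults were not called different from 30 h, such as chinmo (log2 fold change -0.89 at 30 h and -1.23 in adults).

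**Figure D4:**
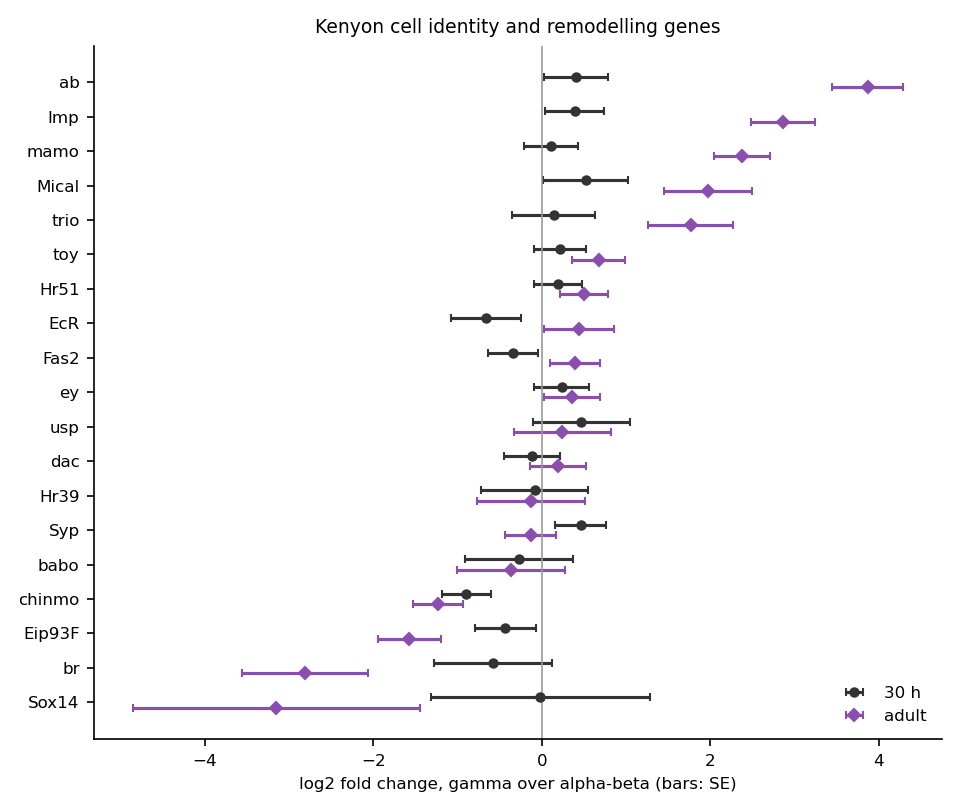
Fitted log2 fold change, gamma over alpha-beta, of the 19 Kenyon cell identity and remodelling genes at 30 h (circles) and in adults (diamonds), with bars of 1 SE. At 30 h all lie within 1 of 0, and ab, Imp and mamo stand between 2.38 and 3.87 in adults.

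The genes called at 30 h were also followed through the other pupal stages. In the mean difference over 18, 21, 24 and 27 h, whose group means come from other libraries but whose filter and estimate of spread are shared with the 30 h fit, 477 genes were called (4.74%), and all 21 genes called at 30 h were among them with the same direction. A fit to the 18 to 27 h libraries alone called 547 genes, 444 of them among the 477. By DESeq2, 260 of its 609 genes called at 30 h were also called over 18 to 27 h in the same direction, and by limma-voom 152 of 255. At each of these 4 stages all 21 had the same direction as at 30 h, and 7 were called at 18 h (0.238% of all genes tested), 6 at 21 h (0.0993%), 7 at 24 h (0.169%) and none at 27 h (0%). Some of these differences were small beside their SE. At 24 h the log2 fold change was 0.084 (SE 1.03) for CG34247, 0.43 (SE 1.45) for nw and 0.67 (SE 1.48) for CG13053. The highest alpha-beta library at 24 h reached 902, 75.4 and 58.3 CPM for these 3 genes. The alpha-beta means over 6 libraries were 174, 16.6 and 11.4 CPM, so 1 library carried most of each mean. At 27 h, with 3 gamma and 4 alpha-beta libraries, no gene of the 10072 was called in edgeR's quasi-likelihood test and 674 (6.69%) had an unadjusted p under 0.05. Of the 477 genes called over 18 to 27 h, 377 (79%) had the same direction at 30 h, against 59.3% of all genes tested, and 203 (42.6%) also had an unadjusted p under 0.05 in that direction at 30 h, against 8.82% of all genes tested. No gene's difference at 30 h was called different from its mean over the earlier pupal stages by edgeR's quasi-likelihood test, where 349 genes (3.47%) had an unadjusted p under 0.05, while DESeq2 called 384 and limma-voom 28. The edgeR test could not decide this for some genes without a count in whole groups, such as CG15130 (SE 3527) and tll (SE 23120).

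In adults 11 of the 21 genes were called in the same direction, against 3.6% of all genes tested, and none in the opposite one; 4 had no count in any adult library (wor, tll, E(spl)m8-HLH and CG13053). Pxn averaged 93.3 ± 21.6, 150 ± 73.0, 183 ± 103, 260 ± 12.97, 433 ± 10.2 and 511 ± 101 CPM in gamma neurons at 18, 21, 24, 27 and 30 h and in adults. In alpha-beta neurons it averaged 72.6 ± 13.7, 91.1 ± 28.5, 93.5 ± 31.4, 140 ± 29.2, 149 ± 53.5 and 154 ± 43.3 CPM at the same stages (SD). Its groups overlapped at 18, 21 and 24 h and were separate from 27 h on. lncRNA:cherub averaged 93.3, 48.5, 27.0, 53.2, 14.6 and 8.96 CPM in gamma neurons across those stages and 3338, 1649, 1354, 1027, 888 and 51.8 CPM in alpha-beta neurons. The pupal groups were separate at each stage and overlapped in adults. CG34377 averaged 112 ± 29.6 CPM in gamma neurons and 0.691 ± 0.719 CPM in alpha-beta neurons at 30 h, and 0.0127 CPM in gamma neurons and 0.124 CPM in alpha-beta neurons in adults. Its difference was called smaller in adults than at 30 h (log2 change -9.93, SE 2.33, edgeR adjusted p = 0.0203).

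**Figure D5:**
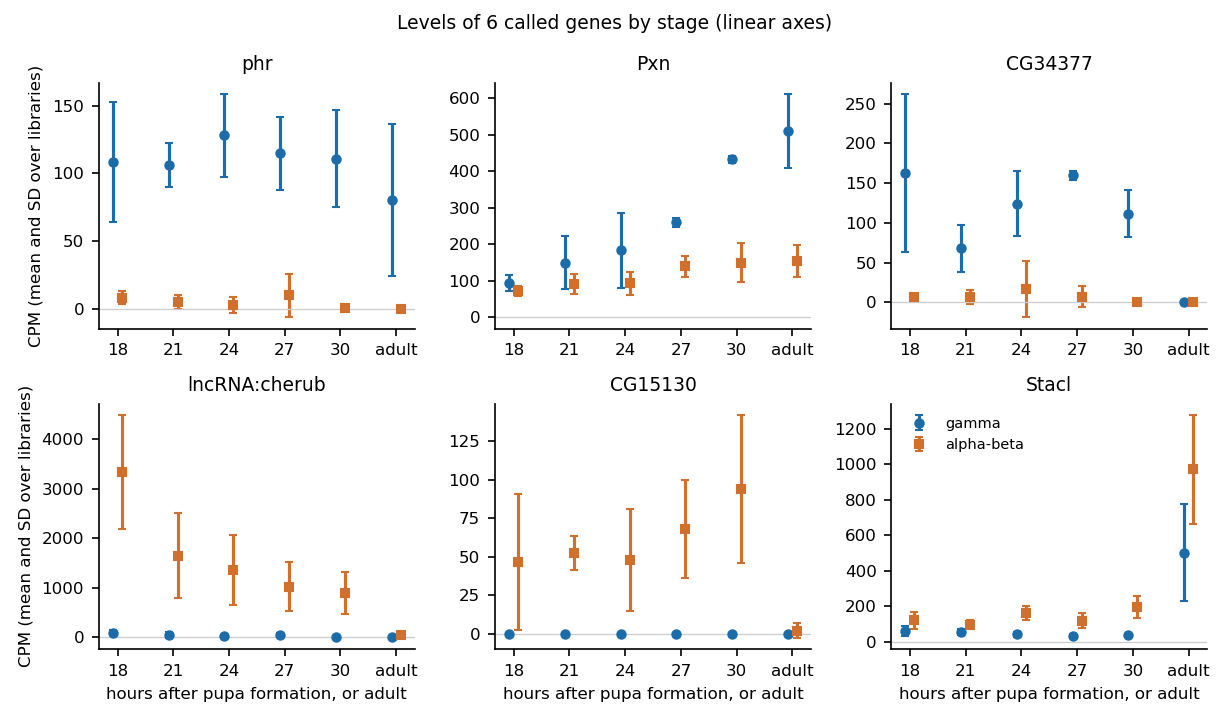
Mean CPM with SD over libraries at 18, 21, 24, 27 and 30 h after pupa formation and in adults for 6 called genes, gamma neurons (circles) left of alpha-beta neurons (squares), with linear axes; each group has 5 libraries except alpha-beta at 24 h (6), gamma at 27 h (3) and alpha-beta at 27 h (4). Levels of phr stay apart at every stage, CG34377 is near 0 in both adult groups, and lncRNA:cherub is highest in alpha-beta neurons at 18 h.

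Across all genes tested, 6 lay higher in every gamma library than in every alpha-beta library of the same stage at all 5 pupal stages, and 9 lay lower. Of these, 4 were also called at 30 h (phr, CG15130, lncRNA:cherub and lncRNA:CR33938). With adults included, 4 genes were higher at all 6 stages (phr, dpr4, CG6912 and CG9727) and 1 was lower (GstZ2, a glutathione transferase gene); CG9727 and GstZ2 were chosen after their values were seen. CG6912 stood at 104.3, 117, 167, 113 and 138 CPM in gamma libraries at 30 h and at 5.61, 0, 0, 0 and 0 CPM in alpha-beta libraries (log2 fold change 6.82, SE 1.67, edgeR adjusted p = 0.0622). The immunoglobulin surface protein gene dpr4 stood at 149, 103, 115, 77.3 and 165 CPM in gamma libraries and at 15.8, 34.9, 0.887, 4.29 and 31.1 CPM in alpha-beta libraries (log2 fold change 2.81, SE 0.95, edgeR adjusted p = 0.323). Neither passed the test at 30 h, although every gamma library lay above every alpha-beta library. Over 18 to 27 h both were called, with edgeR adjusted p = 1.01e-06 for CG6912 and 6.58e-07 for dpr4. GstZ2 stood at 32.7 to 112 CPM in gamma libraries and at 178 to 268 CPM in alpha-beta libraries, and CG9727 at 98.6 to 229 CPM in gamma libraries and 11.97 to 28.8 CPM in alpha-beta libraries.

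Among the genes next in order of p, several also had separate groups without passing the threshold. The odorant-binding protein genes Obp99a and Obp56a were higher in every gamma library, Obp99a at 23.5 to 97.0 CPM in gamma libraries and 1.03 to 11.99 CPM in alpha-beta libraries (edgeR adjusted p = 0.0563), and Obp56a at 2.03 to 107 CPM in gamma libraries and 0 in alpha-beta libraries (edgeR adjusted p = 0.103). The homeobox gene Rx stood at 0 to 0.0910 CPM in gamma libraries and at 16.8 to 77.1 CPM in alpha-beta libraries (edgeR adjusted p = 0.0563). The zinc finger gene luna stood at 13.3 to 61.5 CPM in gamma libraries and at 71.2 to 185 CPM in alpha-beta libraries (edgeR adjusted p = 0.103). By contrast, speck, which encodes arylalkylamine N-acetyltransferase, overlapped, at 71.3, 279, 206, 131 and 261 CPM in gamma libraries and 75.4, 69.6, 35.96, 34.8 and 38.8 CPM in alpha-beta libraries (edgeR adjusted p = 0.0764). Pal2, an enzyme of neuropeptide amidation, also overlapped, at 117 to 401 CPM in gamma libraries and 31.3 to 122 CPM in alpha-beta libraries (edgeR adjusted p = 0.0810).

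Transcription factors of neuron subtypes gave no call, where 0.208% of all genes tested were called. Of 69 homeodomain and zinc finger factors tested none was called, 13 were lower in gamma neurons at an unadjusted p under 0.05 (6.66% of all genes tested) and 3 were higher (5.09%). Of the 69, 5 were lower in every gamma library (1.03%) and 1 was higher (0.953%), and the median log2 fold change was -0.27, against 0 over all genes tested. The zinc finger factor dati stood at 169, 73.6, 214, 110 and 92.6 CPM in gamma libraries and at 248, 207, 434, 365 and 548 CPM in alpha-beta libraries (log2 fold change -1.45, SE 0.39, edgeR adjusted p = 0.118), which overlapped in 1 library. The POU domain factors acj6 and pdm3, chosen after their values were seen, had separate groups. acj6 stood at 0 to 0.451 CPM in gamma libraries and 3.88 to 52.1 CPM in alpha-beta libraries, and pdm3 at 0.135 to 73.6 CPM in gamma libraries and 117 to 750 CPM in alpha-beta libraries (edgeR adjusted p = 0.149 and 0.323). pdm3 was lower in every gamma library at all 5 pupal stages.

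Ecdysone genes were examined because the hormone drives mushroom body remodelling. Of 29 tested none was called, 6 were higher in gamma neurons at an unadjusted p under 0.05 (5.09% of all genes tested) and 1 was lower (6.66%). ImpE2, an ecdysone-inducible gene of imaginal discs, stood at 188, 269, 196, 256 and 397 CPM in gamma libraries and at 0, 0, 0.507, 10.02 and 0 CPM in alpha-beta libraries (log2 fold change 6.92, SE 1.85, edgeR adjusted p = 0.138). The groups were separate. The receptor coactivator gene tai stood at 53.6 to 121 CPM in gamma libraries and at 102 to 254 CPM in alpha-beta libraries (edgeR adjusted p = 0.323). Of 27 TOR and insulin pathway genes, none was called and none reached an unadjusted p under 0.05, against 11.8% of all genes tested. That share rests largely on genes counted in few libraries.

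Surface proteins and guidance genes gave no call, where 0.208% of all genes tested were called. Of 44 guidance ligands and receptors 1 was higher in gamma neurons at an unadjusted p under 0.05 (5.09% of all genes tested) and 3 were lower (6.66%). Drl-2, a Ryk family Wnt receptor, stood at 26.6 to 117 CPM in gamma libraries and 85.4 to 201 CPM in alpha-beta libraries (edgeR adjusted p = 0.323). The semaphorin gene Sema1a stood at 146 to 446 CPM in gamma libraries and 305 to 738 CPM in alpha-beta libraries (edgeR adjusted p = 0.323). Of 21 beat and side genes 3 had a log2 fold change above 0, against 48.3% of all genes tested, with a median of -0.86. Among them beat-VII stood at 0, 2.91, 10.7, 0 and 0 CPM in gamma libraries and at 38.8, 24.6, 80.9, 16.3 and 32.1 CPM in alpha-beta libraries (log2 fold change -3.80, SE 1.09, edgeR adjusted p = 0.178), without overlap. beat-VI lay the other way, at 376 to 781 CPM in gamma libraries and 344 to 513 CPM in alpha-beta libraries (edgeR adjusted p = 0.377). The dpr and DIP family of 32 genes had a median log2 fold change of -0.52, with 12 above 0, against 48.3% of all genes tested. dpr15 stood at 0 to 0.225 CPM in gamma libraries and 0.0735 to 11.3 CPM in alpha-beta libraries (edgeR adjusted p = 0.323). Of 58 cell adhesion molecules 4 were higher at an unadjusted p under 0.05 (5.09% of all genes tested) and 3 were lower (6.66%). The gene klg (klingon), needed for long-term memory, stood at 50.6 to 103 CPM in gamma libraries and 65.0 to 483 CPM in alpha-beta libraries (edgeR adjusted p = 0.274).

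Neuronal signalling genes gave a single call. Of 68 neuropeptide and peptide receptor genes AstA-R1 was the only one called (0.208% of all genes tested), with 10 lower in gamma neurons at an unadjusted p under 0.05 (6.66%) and 4 higher (5.09%). Of 47 transmitter receptor genes none was called, 6 were lower at that level (6.66% of all genes tested) and none was higher (5.09%). The nicotinic receptor subunit gene nAChRbeta1 stood at 370, 308, 378, 268 and 384 CPM in gamma libraries and at 762, 467, 474, 239 and 1039 CPM in alpha-beta libraries (log2 fold change -0.80, SE 0.28, edgeR adjusted p = 0.323). The groups overlapped, with the fourth alpha-beta library the lowest of all 10. Of 45 ion channel genes 3 were higher at an unadjusted p under 0.05 (5.09% of all genes tested) and 4 were lower (6.66%). The potassium channel gene Elk lay higher in every gamma library, at 140, 72.5, 96.9, 55.7 and 106 CPM in gamma libraries and 27.1, 17.1, 25.6, 48.4 and 34.9 CPM in alpha-beta libraries (log2 fold change 1.62, SE 0.47, edgeR adjusted p = 0.178). Of 36 synaptic vesicle and active zone genes none reached an unadjusted p under 0.05 in either direction, against 11.8% of all genes tested. That share rests largely on genes counted in few libraries.

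Of 39 neuronal RNA-binding protein genes none was called. At an unadjusted p under 0.05, 5 were lower in gamma neurons (6.66% of all genes tested) and none was higher (5.09%). fne, an ELAV family gene, stood at 2789, 1883, 2167, 1463 and 1813 CPM in gamma libraries and at 3182, 2290, 3175, 3686 and 5535 CPM in alpha-beta libraries (log2 fold change -0.82, SE 0.23, edgeR adjusted p = 0.178). The splicing regulator gene mbl stood at 56.3 to 177 CPM in gamma libraries and at 152 to 622 CPM in alpha-beta libraries (log2 fold change -1.31, SE 0.45, edgeR adjusted p = 0.323). Both had 1 gamma library within the alpha-beta range. Cytoplasmic ribosomal protein genes had a log2 fold change above 0 in 72 of 86, against 48.3% of all genes tested, with a median of 0.21, and none was called. RpL37A stood at 76.9 to 224 CPM in gamma libraries and at 70.7 to 124 CPM in alpha-beta libraries, and RpL13 at 251 to 523 CPM in gamma libraries and 224 to 285 CPM in alpha-beta libraries (edgeR adjusted p = 0.373 and 0.401).

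Other markers of cells that a sort could hold were also summed. The 7 fat body markers summed to 21.1 to 32.1 CPM in gamma libraries and 47.8 to 89.4 CPM in alpha-beta libraries, without overlap, and apolpp carried nearly all of it, at 16.5 to 29.1 CPM in gamma libraries and 47.5 to 87.9 CPM in alpha-beta libraries. The other 6 together reached 0.0677 to 6.14 CPM in gamma libraries and 0 to 10.1 CPM in alpha-beta libraries, and the median log2 fold change of the 7 was 0.71. Photoreceptor markers summed to 0 to 49.4 CPM in gamma libraries and 0 to 0.748 CPM in alpha-beta libraries, with 4 of 6 at 0 in all 10 libraries. Hemocyte markers summed to 0 to 9.28 CPM in gamma libraries and 0.0579 to 6.24 CPM in alpha-beta libraries. Markers of other transmitter types summed to 400 to 654 CPM in gamma libraries and 177 to 635 CPM in alpha-beta libraries. Their part in the differences above was not tested.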

How the data were processed

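Sorted gamma and alpha-beta neurons at 30 h after pupa formation were measured by RNA-seq, 5 libraries each, within a table of 58 libraries. The authors deposited raw read counts per gene, aligned with STAR per the submitters' processing notes; the version, genome build, annotation and counting settings are not given in the sources used here, so no coordinates are printed. The authors also deposited, per the file headers, DESeq2 results for this pair: a mean normalized signal, a log2 fold change and p-values. The headers do not state the direction of the fold change. It was read as alpha-beta over gamma because its sign matched that ratio of the counts in 5841 of 6412 genes checked. Their 116 normalized columns were not used.

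Counts were fitted with edgeR 4.0.16 (filterByExpr, minimum count 10, trimmed mean of M-values factors, quasi-likelihood F-test), all 12 groups of type and stage in 1 fit so that they share one estimate of spread, with Benjamini-Hochberg adjustment over 10072 genes and a threshold of 0.05. The common biological coefficient of variation was 1.34. Each SE was derived from the fitted log2 fold change and its F statistic. Fold bounds use 3 counts in the shallowest library of the group at 0 and cover counting error only; they were also computed without each library of the other group, chosen after the data were seen. Alternatives were DESeq2, relative log expression factors, no count filter, limma-voom, blocks by replicate number or sample-sheet set, subsets of libraries, libraries left out and summed Hsp70 genes. The sample-sheet sets are an assumption. The number after S in each library name was cut into runs of 12, and no label names such sets.

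Named genes were all called genes, the 19 Kenyon cell genes, the 2 with the lowest p in each list where described, the next 10 by p, and those said to be chosen after their values were seen. The members and lists were chosen with earlier results of these data known. Symbols follow the deposited table; exon overlaps come from the BDGP6 annotation.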

Additional observations from a re-analysis of the deposited data

Results flagged for a closer look

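In 136 groups of 5 libraries of the genes named above, 21 held a library whose gap to the nearest other exceeded the 95% critical value of Dixon's ratio; chance flags about 1 in 20 groups, and genes at 0 in the other 4 libraries exceed it by construction.

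The fifth alpha-beta library stood apart for 7 genes. It was highest for Stacl (310 CPM, next 183 CPM), RunxA (30.4 CPM, next 7.7 CPM), CG42458 (20.8 CPM, next 3.97 CPM), beat-VI (513 CPM, next 381 CPM), mbl (622 CPM, next 206 CPM) and pdm3 (750 CPM, next 195 CPM), and lowest for Hsp70Ba (2.74 CPM, next 12 CPM). This library had the lowest total of the 10, 7997417 counts, and mitochondrial genes took 1.01% of its counts, against 0.241 to 0.51% in the other 9 libraries. The third alpha-beta library was highest for tll (286 CPM, next 64.5 CPM) and insb (26.1 CPM, next 5.88 CPM). Other alpha-beta libraries stood apart for ImpE2 (10 CPM, next 0.507 CPM) and, with all others at 0, for phr (1.62 CPM) and CG6912 (5.61 CPM). Fits without each of these libraries are given above, but leaving out any of the 10 libraries lost 7 to 13 of the calls. A lost call therefore does not measure the part of the library left out, and no cause was tested.

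Among gamma libraries the fifth was highest for nw (188 CPM, next 54.4 CPM), lncRNA:CR33938 (12.8 CPM, next 3.39 CPM) and Obp56a (107 CPM, next 12.1 CPM), and the third for beat-VII (10.7 CPM, next 2.91 CPM). With all others at 0, single gamma libraries had 0.0677 CPM of E(spl)m6-BFM, 0.091 CPM of Rx, 0.135 CPM of PCNA, 0.225 CPM of dpr15 and 0.451 CPM of acj6. These were 1 read each for E(spl)m6-BFM and Rx, 2 reads each for PCNA and dpr15, and 4 reads for acj6.

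The difference between gamma and alpha-beta neurons was called different in adults and at 30 h for 5 of these genes. The log2 change of the difference, adults minus 30 h, was 3.46 for ab, 2.47 for Imp, 2.27 for mamo, 6.03 for CG9727 and -9.93 for CG34377, with adjusted p-values from edgeR of 0.000232, 0.00489, 0.00352, 0.00121 and 0.0203. Genes without a count in whole groups could lie beyond this test. Its SE was 21420 to 54840 for wor, tll, E(spl)m8-HLH and CG13053, which had no count in adults, and 33610 for nw. For such genes it could not decide whether the difference changed.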

How the results depend on the processing

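Counts of called genes moved with the tool and libraries, and the cause was not tested. DESeq2 called 609 genes at 30 h (277 higher in gamma, 332 lower), 1033 over 18 to 27 h, 1450 in adults, 384 for 30 h against the earlier stages and 924 for adults against 30 h, and limma-voom called 255 (150 higher, 105 lower), 891, 313, 28 and 123. The libraries of 1 stage alone gave 41 at 30 h (28 higher and 13 lower, with 13 of the 21 genes among them and 7015 genes tested) and 25 in adults. In that 30 h fit wor, E(spl)m8-HLH, E(spl)m6-BFM, tll, Obp73a and CG13053 did not pass the count filter and were not tested. AstA-R1 and RunxA were tested and not called (edgeR adjusted p = 0.07 and 0.0657). With 1 of the 10 libraries at 30 h left out, 8 to 15 genes were called at 30 h and 41 to 68 for adults against 30 h; with all libraries of 1 replicate number left out, 3 to 22 were called at 30 h, 137 to 500 over 18 to 27 h, 203 to 382 in adults, 0 in each fit for 30 h against the earlier stages and 27 to 87 for adults against 30 h. Relative log expression factors gave 20 genes at 30 h, no count filter 18, the summed Hsp70 genes 20 and the sample-sheet set as a block 17. Deviations of libraries with the same replicate number correlated at 0.00322 to 0.0909, none over 0.1, so the numbers were not taken to pair libraries; the replicate block gave 25 genes at 30 h (13 higher, 12 lower), 20 of them among the 21. DESeq2 called all 21, limma-voom 20, and 11 were called in all 7 alternatives run on every library or on 30 h alone. In the last count, genes not tested in the fit to 30 h alone stand as not called. Of 2399 values of single genes and shared counts under the alternatives, 2094 kept their direction and side of the threshold, 180 no longer passed it, 80 newly passed it, 45 moved, and no called value was reversed. The 2094 include named genes that were not called and stayed so. Only the 21 called genes could lose the threshold, so all 180 losses are theirs. Shared counts were judged by how far the number moved, not by direction or threshold. The within-set difference used 1 gamma and 1 alpha-beta library per assumed sample-sheet set. It had the fitted direction in 5 of 5 sets for 16 of the 21 genes, and in 4 for 4 more. The 16 are those whose groups did not overlap, so any pairing gives this direction and the count adds no support. Depth limited genes under 0.119 to 0.374 CPM.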
